A study of Rattus norvegicus with 2 samples.

Results

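The regulatory T cell genes were 8 genes listed by symbol: the transcription factor genes Foxp3, Ikzf2 and Ikzf4, the surface receptor genes Il2ra, Ctla4 and Lrrc32, and the ectoenzyme genes Entpd1 and Nt5e. Rows of the array table were taken as members where the platform annotation gave one of these symbols. Of the 8 genes, 7 had a named transcript cluster, 1 row each, among 15037 named genes and 23188 transcript clusters in all. Ikzf4 had no row under its symbol in the platform annotation and was not analysed here. The treated group was male Sprague-Dawley rats, 8 weeks old at the start, that received 20 mg/kg of cocaine hydrochloride intravenously each day for 7 days. The control group was of the same strain, sex and age, is labelled as unstimulated, and according to the methods was given saline by the same route. Whole thymus was taken 1 day after the last dose, and RNA of each group was hybridized to 1 Clariom S array. The titles and the methods do not state how many rats gave the RNA of an array. The note on RNA extraction names spleen where titles and source name thymus. Each row is the summary of a set of short probes for one transcript cluster. No replicate stands behind either array, so no test could be made, and the precision of each value is limited to what 2 arrays give.

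Regulatory T cells are CD4+ T cells that restrain other T cells and are held in their state by the transcription factor Foxp3. Many of them arise in the thymic medulla, from young CD4+ cells whose receptors bind self-antigen strongly and which receive IL-2. They are a small minority of thymic cells, most of which are immature cortical thymocytes. Of the genes listed here Foxp3 is the most restricted to them, whereas the others are used by further cell types of the organ, such as double-negative thymocytes for Il2ra and endothelium or stroma for Nt5e. In whole thymus RNA, fewer cells of a type and less RNA per cell cannot be told apart.

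The cocaine thymus and the control thymus carried nearly the same signal for 5 of the 7 measured genes, and lower signals in the cocaine thymus for Lrrc32 and Nt5e. By more than 1.5-fold, 1 member was lower (Lrrc32) and 0 were higher. Over all 23188 transcript clusters, 2.29% were lower and 1.98% higher by that much, and by more than 2-fold, which no member reached, 0.224% were lower and 0.151% higher. The median difference of the 7 genes, cocaine minus control on the log2 scale, was -0.03 and that of all transcript clusters was 0.01. As deposited, these medians were -0.03 and 0, and 2 of the 7 genes, Ctla4 and Entpd1, held identical values on both arrays. The central 95% of all differences ran from -0.57 to 0.55. The plot of levels shows these pairs, and the plot of differences over level places them among all rows.

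**Figure D1:**
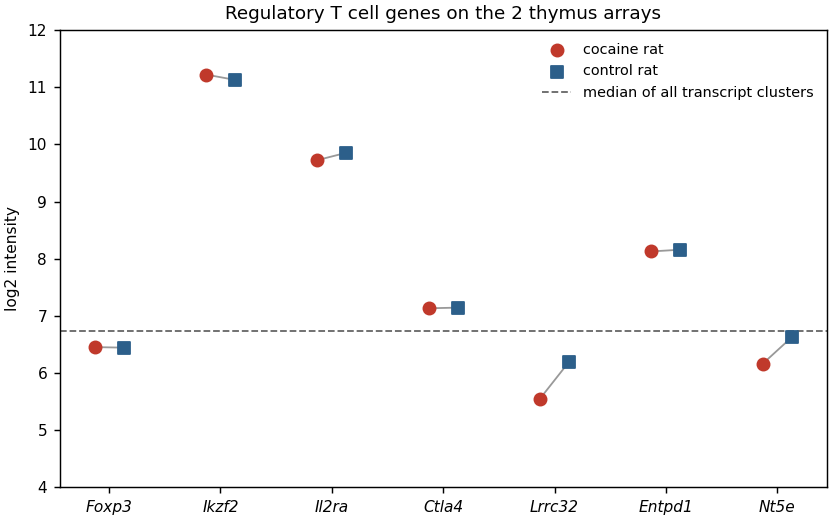
Log2 intensity (vertical axis) of the 7 measured regulatory T cell genes in the cocaine thymus (circles) and the control thymus (squares), 1 array each, with the median level of all transcript clusters as a dashed line. Lrrc32 (5.55 with cocaine, 6.19 in the control) and Nt5e (6.16 with cocaine, 6.62 in the control) are the pairs that lie visibly apart.

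Foxp3, the factor that defines the lineage, had deposited intensities of 86.1 in the cocaine thymus and 88.0 in the control thymus. On the log2 scale after quantile normalization, which gives both arrays one distribution, these became 6.45 with cocaine and 6.44 in the control. The difference was 0.01 here, -0.03 on the values as deposited, -0.01 with each array centred on its median and -0.02 after lowess centring, so its sign is not settled. In rank it stood at percentile 46.0 of all transcript clusters on the cocaine array and 45.8 on the control array, below the middle of both. Signals at this height are also found where no transcript is thought to be present: of 131 rows for olfactory and vomeronasal receptors, families of sensory neurons of the nose, 10 were as bright or brighter on the cocaine array and 10 on the control array. Of the 23 background control rows of the array, which hold probes without a rat target, 12 were as bright or brighter on each. All 23 held the same value on both arrays, so the 2 counts are not separate checks. Their median was 6.77 as deposited, close to the median level of all transcript clusters (6.74). Those 23 rows differ in GC content, and the GC content of the Foxp3 probes was not used here. The defining gene of the lineage thus lay within the range of such rows on both arrays.

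**Figure D2:**
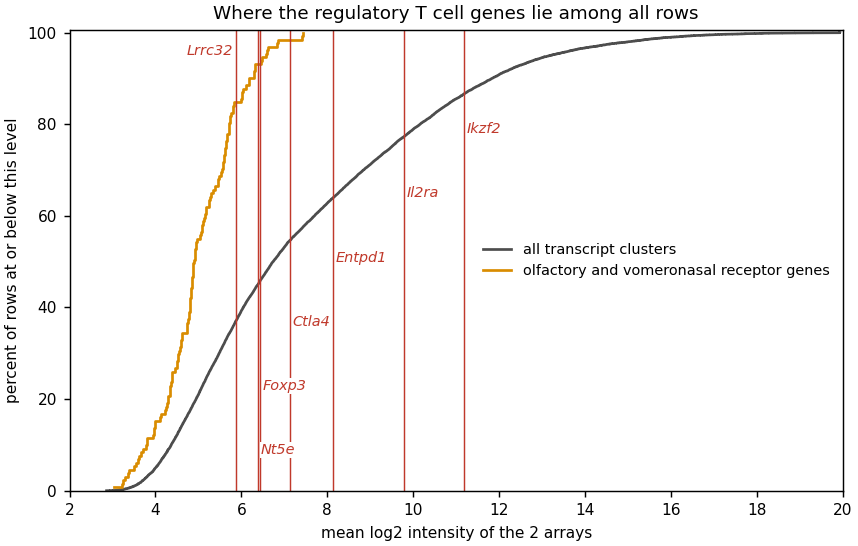
Percent of rows (vertical axis) at or below each mean log2 intensity (horizontal axis) for all transcript clusters and for 131 olfactory and vomeronasal receptor genes, with the mean levels of the 7 regulatory T cell genes as vertical lines. Lrrc32, Nt5e, Foxp3 and Ctla4 lie within the range of the nasal receptor rows, and Entpd1, Il2ra and Ikzf2 lie above all of them.

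Ikzf2 encodes Helios, an Ikaros family zinc-finger factor that most thymus-derived regulatory T cells express and that other thymocytes use too. Its deposited intensity was 2427 in the cocaine thymus and 2201 in the control thymus. The log2 levels were 11.22 with cocaine and 11.13 in the control. Its percentile was 86.8 with cocaine and 86.2 in the control, the highest of the 7 members on both arrays, though the probes of different genes differ in affinity and ranks do not order amounts of RNA. The difference was 0.09 here and 0.16 with each array centred on its median, positive under each of the 4 scalings, and 49.1% of all transcript clusters differed by at least 0.09 in size. The 3 other Ikaros family genes with a row lay lower in the cocaine thymus by small amounts. Ikzf1, whose product Ikaros gives the family its name, was 15.78 with cocaine and 15.84 in the control. Ikzf3, which encodes Aiolos, was 13.78 with cocaine and 13.83 in the control. Ikzf5, which encodes Pegasus, was 11.04 with cocaine and 11.19 in the control. None of these 3 genes differed by more than 1.5-fold, and they had a median difference of -0.06.

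Il2ra encodes CD25, the α chain that gives the IL-2 receptor its high affinity. Its deposited intensity was 863 in the cocaine thymus and 908 in the control thymus, and its log2 levels were 9.72 with cocaine and 9.85 in the control. The difference was -0.13 after quantile normalization and lay between -0.13 and -0.05 over the 4 scalings. Its rank was percentile 76.8 with cocaine and 77.8 in the control. CD25 is also a marker of double-negative thymocytes, the youngest stage of the lineage. Of 12 measured genes of that stage 1 was higher by more than 1.5-fold, the receptor gene Notch3 (7.73 with cocaine and 7.14 in the control), and 1 was lower, the adhesion gene Mpzl2 (8.98 with cocaine and 9.73 in the control). Bcl11b, a factor of T lineage commitment in that list, was 15.09 with cocaine and 14.61 in the control. The adhesion receptor gene Cd44 (9.34 with cocaine and 9.65 in the control) and the transcription factor genes Spi1 (6.09 with cocaine and 6.44 in the control) and Erg (7.12 with cocaine and 7.45 in the control) were dimmer with cocaine by less than 1.5-fold. The median difference of the 12 genes was 0.0011, and as deposited 4 lay above 0, 6 below and 2 were identical. Their summed intensity was 37714 in the cocaine thymus and 28422 in the control thymus, most of it from Bcl11b. Without Bcl11b the sum was 2832 with cocaine and 3389 in the control, so that its direction turned with that 1 gene. The part of these genes in the value of Il2ra was not tested.

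The other chains and the signaling genes of the IL-2 receptor gave a mixed picture. The β chain gene Il2rb was 9.21 in the cocaine thymus and 9.00 in the control thymus on the log2 scale, a difference of 0.21. The γ chain gene Il2rg, shared with other cytokine receptors, was 15.77 with cocaine and 15.87 in the control. Of 15 measured genes of this list, 1 was higher by more than 1.5-fold, 0 were lower and 14 lay within. The higher one was Socs3, a feedback inhibitor of cytokine signaling, at 9.49 in the cocaine thymus and 8.89 in the control thymus. On the other side lay Il15, a cytokine that shares the β and γ chains (8.44 with cocaine and 9.01 in the control), and Cish, a STAT5-induced inhibitor (8.30 with cocaine and 8.81 in the control). The receptor gene Il7r was 12.40 with cocaine and 12.76 in the control. The median difference of the list was 0.0019.

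Ctla4 encodes an inhibitory receptor that takes up CD80 and CD86 from antigen-presenting cells. Its deposited intensity was 140.5 on both arrays, to every digit given. Such identity was frequent: 27.2% of all transcript clusters held exactly the same value in both columns, and so did 2 of the 7 members, Ctla4 and Entpd1. After quantile normalization the levels of Ctla4 were 7.13 in the cocaine thymus and 7.14 in the control thymus, so its difference of -0.01 came from that step. It stood at percentile 54.6 with cocaine and 54.7 in the control, and 2 of the 131 nasal receptor rows were as bright on each array. In the rat annotation of RefSeq, Ctla4 lies between Cd28 and Icos, which encode its activating relatives. Cd28 was 15.22 with cocaine and 15.26 in the control, and Icos was 12.71 with cocaine and 13.13 in the control, a difference of -0.42. The ligand genes Cd80 (8.84 with cocaine and 8.92 in the control) and Cd86 (9.43 with cocaine and 9.49 in the control) also held identical deposited values on both arrays. All 12 measured genes of the CTLA-4 and CD28 axis lay within 1.5-fold, with a median difference of -0.05. Among them the inhibitory receptor gene Btla was 8.52 with cocaine and 8.15 in the control, Cd274, which encodes PD-L1, was 10.88 with cocaine and 10.59 in the control, and its receptor gene Pdcd1 was 7.95 with cocaine and 8.22 in the control.

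**Figure D3:**
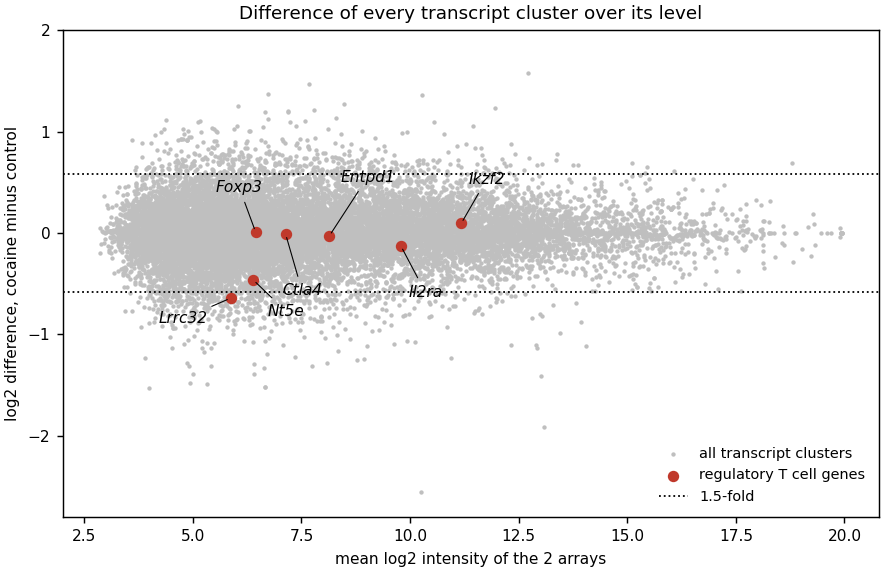
Cocaine minus control log2 difference (vertical axis) over mean log2 intensity (horizontal axis) for 23188 transcript clusters (grey) and the 7 measured regulatory T cell genes (red), with 1.5-fold as dotted lines. Lrrc32 lies just beyond the lower line, Nt5e between it and 0, and the other 5 near 0.

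Lrrc32 encodes GARP, which holds latent TGF-β on the surface of activated regulatory T cells and is also found on platelets and endothelium. Its deposited intensity was 46.1 in the cocaine thymus and 73.9 in the control thymus. The log2 levels were 5.55 with cocaine and 6.19 in the control, a difference of -0.64 or 1.56-fold lower with cocaine, between -0.68 and -0.64 over the 4 scalings. The rank was percentile 31.3 on the cocaine array and 42.2 on the control array. Of all transcript clusters, 3.06% differed by at least as much in either direction, and of the 5797 that lie, like Lrrc32, between the 25th percentile and the median of mean level, 2.12% were lower by at least as much. The row was dim: 38 of the 131 nasal receptor rows were as bright or brighter on the cocaine array and 13 on the control array. When 16 was added to the intensities before the log2 step, which damps the differences of dim rows, the difference was -0.50 and Lrrc32 no longer passed 1.5-fold.

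The measured genes that act with GARP lay within 1.5-fold. Tgfb1, the cytokine it carries, was 12.25 in the cocaine thymus and 12.46 in the control thymus on the log2 scale. Nrros, a relative of GARP that anchors latent TGF-β on macrophages and microglia, was 12.02 with cocaine and 11.79 in the control. The receptor gene Tgfbr1 was 13.40 with cocaine and 13.79 in the control. The signal transducer gene Smad4 was 14.09 with cocaine and 14.46 in the control. Furin, a protease that cleaves the precursor of TGF-β, was 10.58 with cocaine and 10.23 in the control. Of 17 measured genes of TGF-β storage and activation, 0 were higher and 0 lower by more than 1.5-fold, 8 held identical deposited values, and the median difference was -0.03. Tgfbr2, Itgav and Itgb8 of that list had no row. For the other cells that use GARP, 1 of 10 measured endothelial markers was higher by more than 1.5-fold and 0 were lower. The higher one was the angiopoietin receptor gene Tek (7.60 with cocaine and 7.01 in the control). Cldn5 (7.48 with cocaine and 7.76 in the control) and Emcn (7.08 with cocaine and 7.32 in the control) were dimmer with cocaine by less than 1.5-fold. As deposited, 4 of the 10 endothelial markers lay above 0, 3 below and 3 were identical. The summed intensity of the endothelial markers was 2222 with cocaine and 2118 in the control, and without the brightest of them, Pecam1, 1499 with cocaine and 1497 in the control. All 5 measured platelet markers lay within 1.5-fold and summed to 532 with cocaine and 485 in the control. Without the brightest, Itgb3, their sum was 217 with cocaine and 221 in the control. Gp9, a subunit of a platelet adhesion receptor, was the one that lay lowest relative to its control value, at 5.10 with cocaine and 5.54 in the control. As deposited, 2 of the 5 platelet markers lay above 0, 1 below and 2 were identical. The median difference of that list was 0.03. The part of these cells in the lower Lrrc32 was not tested.

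Entpd1 and Nt5e encode CD39 and CD73, which act in sequence outside the cell: CD39 takes phosphates off ATP and ADP to give AMP, and CD73 turns AMP into adenosine, which inhibits T cells. Entpd1 had a deposited intensity of 282.8 on both arrays. After quantile normalization it was 8.13 in the cocaine thymus and 8.16 in the control thymus, and its rank was percentile 63.8 with cocaine and 64.1 in the control. Nt5e had 70.7 with cocaine and 99.5 in the control as deposited. Its log2 levels were 6.16 with cocaine and 6.62 in the control, a difference of -0.46 or 1.38-fold lower with cocaine, between -0.49 and -0.46 over the 4 scalings. Its rank was percentile 41.8 on the cocaine array and 48.4 on the control array. Of the 5797 transcript clusters in the band of mean level given for Lrrc32, where Nt5e also lies, 5.54% were lower by at least as much, and Nt5e lay inside the central 95% of differences. Of the 131 nasal receptor rows, 14 were as bright or brighter on the cocaine array and 6 on the control array.

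All 20 measured companions of these enzymes, the genes that make, break down, carry or sense extracellular nucleotides and adenosine, lay within 1.5-fold. Their median difference was -0.02. The receptor gene Adora1 was 6.43 in the cocaine thymus and 6.09 in the control thymus, and the ATP and ADP receptor gene P2ry1 was 5.56 with cocaine and 5.23 in the control. The ectoenzyme gene Enpp1 was 6.19 with cocaine and 6.45 in the control, and the nucleotidase gene Nt5c3a was 9.69 with cocaine and 10.06 in the control. Fibroblasts and pericytes are further users of CD73. All 9 of their measured markers lay within 1.5-fold, with a median difference of -0.19 and a summed intensity of 5306 with cocaine and 5774 in the control. Among them were the collagen gene Col3a1 (8.78 with cocaine and 9.06 in the control) and the proteoglycan gene Dcn (10.49 with cocaine and 10.76 in the control). Lum went the other way, at 6.07 with cocaine and 5.78 in the control. As deposited, 4 of the 9 markers lay above 0 and 5 below. The part of fibroblasts and pericytes in the lower Nt5e was not tested.

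The promoters of the members differed in base composition, and 4 are shown. Foxp3 and Il2ra form a pair low in G and C, and Ikzf2 and Nt5e a pair high in G and C. These 4 genes were chosen as the lineage factor, the receptor chain, the brightest member and a lower member of the results above. The promoter set used here, from RefSeq build GRCr8, held 6 of the 8 genes and lacked Ikzf4 and Lrrc32. The 250 bases before each annotated start were read 5′ to 3′ on the strand of the gene, and the deposited files carry no measurement of them. Capitals mark matches, on either strand, to the TATA box (TATAAA), the GC box (GGGCGG) or the core of Ikaros family sites (TGGGAA). The cores of NFAT sites (GGAAAA), of AP-1 sites (TGANTCA) and of forkhead sites (GTAAACA) were searched as well and not found in these 250 bases of any of the 6. The windows shown are chrX:17595701-17595950 for Foxp3 (minus strand), chr17:71808476-71808725 for Il2ra (minus strand), chr9:78640360-78640609 for Ikzf2 (minus strand) and chr8:98150675-98150924 for Nt5e (plus strand).
Foxp3: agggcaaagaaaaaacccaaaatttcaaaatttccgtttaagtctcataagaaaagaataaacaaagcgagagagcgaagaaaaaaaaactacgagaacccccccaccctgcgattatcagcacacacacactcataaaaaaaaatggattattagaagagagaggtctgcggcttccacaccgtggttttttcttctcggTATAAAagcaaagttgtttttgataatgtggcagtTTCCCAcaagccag
Il2ra: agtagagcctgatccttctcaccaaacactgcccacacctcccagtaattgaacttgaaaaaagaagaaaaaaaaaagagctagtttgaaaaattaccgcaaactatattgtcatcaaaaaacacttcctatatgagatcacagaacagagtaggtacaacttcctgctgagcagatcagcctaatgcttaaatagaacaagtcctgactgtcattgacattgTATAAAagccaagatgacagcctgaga
Ikzf2: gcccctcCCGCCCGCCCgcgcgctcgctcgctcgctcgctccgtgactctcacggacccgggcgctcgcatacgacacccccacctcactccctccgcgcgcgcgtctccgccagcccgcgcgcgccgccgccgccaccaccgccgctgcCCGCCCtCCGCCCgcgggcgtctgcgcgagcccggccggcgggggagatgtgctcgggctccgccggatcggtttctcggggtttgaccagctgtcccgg
Nt5e: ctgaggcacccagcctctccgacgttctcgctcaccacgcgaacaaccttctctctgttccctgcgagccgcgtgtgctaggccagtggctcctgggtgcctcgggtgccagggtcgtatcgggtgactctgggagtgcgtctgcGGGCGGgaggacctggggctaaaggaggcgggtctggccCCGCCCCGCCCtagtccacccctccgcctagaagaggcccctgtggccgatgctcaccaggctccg

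Foxp3 and Il2ra had 39.2% and 38.4% G and C and held 8 and 1 CpG. Each held a TATA box on the strand of the gene, which began 49 bases before the start in Foxp3 and 27 bases before it in Il2ra. Ctla4, not shown, had 43.6% G and C with a TATA box that began 98 bases before the start. Ikzf2 and Nt5e had 79.2% and 68.8% G and C with 46 and 20 CpG, no TATA box, and 4 and 3 GC boxes, some of which overlap each other. Entpd1 had 48.8% G and C and none of the 6 motifs. Over 33469 rat promoters cut in the same way, the medians were 51.2% G and C and 5 CpG. Of these promoters, 12.9% held the TATA box, 30.5% the GC box and 22.1% the Ikaros family core, which Foxp3 and Ctla4 held once each. The other 3 motifs were found in 21.6% (NFAT), 6.34% (AP-1) and 3.21% (forkhead). These are matches of letters, and no binding was measured.

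Genes that regulatory T cells use besides the members, and the factors that control Foxp3, lay mostly within 1.5-fold between the 2 arrays. Of 21 measured surface and effector genes 1 was higher by more than 1.5-fold, 0 were lower and 20 lay within. The higher one was Cd83, a surface protein of activated lymphocytes, dendritic cells and thymic epithelium, at 12.06 in the cocaine thymus and 11.22 in the control thymus. Tnfrsf4, which encodes the costimulatory receptor OX40, was 8.53 with cocaine and 8.17 in the control. Itgae, which encodes the integrin chain CD103, was 6.30 with cocaine and 6.81 in the control. The median difference of that list was -0.06. Of 24 measured genes of transcriptional control, 1 was higher by more than 1.5-fold and 0 were lower, with a median of -0.0087. The higher one was Id2, an inhibitor of E proteins, at 10.73 in the cocaine thymus and 10.05 in the control thymus. Its relative Id3 was 8.91 with cocaine and 8.52 in the control. Gata3, a factor of CD4+ T cells, was 13.74 with cocaine and 13.47 in the control, and Batf, an AP-1 family factor of effector T cells, was 8.48 with cocaine and 8.21 in the control.

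**Figure D4:**
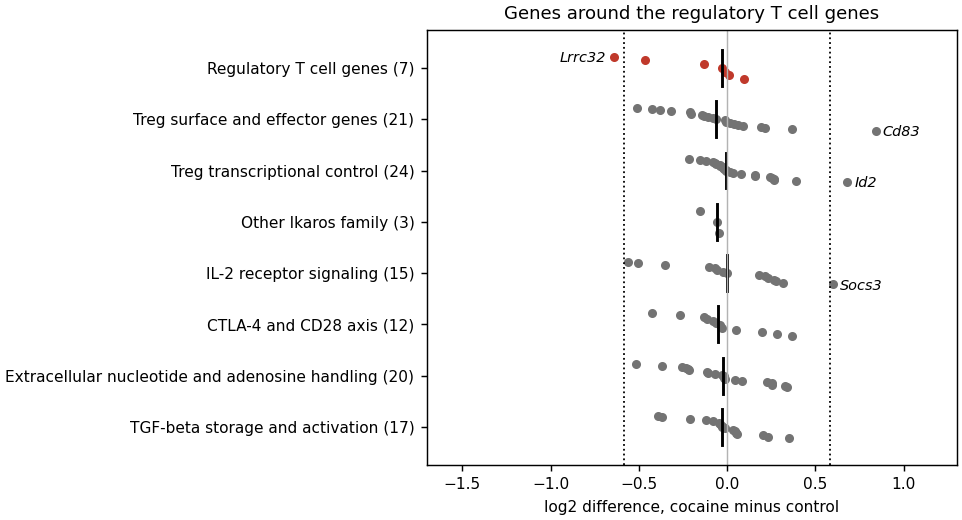
Cocaine minus control log2 difference (horizontal axis) of each measured gene (points) of the regulatory T cell genes and of 7 companion lists, with the number measured in brackets, list medians as black bars and 1.5-fold as dotted lines. Cd83, Id2 and Socs3 are the 3 companion genes beyond 1.5-fold, all higher with cocaine.

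Counted once each, 108 of 125 companion genes over the 7 lists had a named row. Of these, 3 (Cd83, Id2 and Socs3) were higher by more than 1.5-fold and 0 were lower, and the median difference was -0.02. Over all 23188 transcript clusters, 1.98% were higher and 2.29% lower by that much. As deposited, 40 of the 108 companion genes were above 0, 38 below 0 and 30 identical on both arrays.

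Both arrays carried the signal of a thymus. The recombination genes Rag1 (18.87 in the cocaine thymus and 18.87 in the control thymus) and Dntt (18.30 with cocaine and 18.30 in the control) and the T cell genes Cd3e (13.79 with cocaine and 13.82 in the control), Cd4 (16.40 with cocaine and 16.68 in the control) and Cd8a (16.43 with cocaine and 16.63 in the control) were bright on both. Rag1 and Dntt each held the same rank on both arrays, so quantile normalization made their levels equal. As deposited, Dntt was 327110 with cocaine and 317064 in the control. All 11 measured cortical thymocyte markers and all 7 measured genes of mature thymocytes lay within 1.5-fold. In the medullary niche, where regulatory T cells are selected, 1 of 23 measured genes was lower by more than 1.5-fold and 0 were higher. It was Ltb, which encodes lymphotoxin β, a ligand by which T cells act on medullary epithelium, at 10.92 with cocaine and 11.57 in the control. The costimulatory gene Cd40 was 7.34 with cocaine and 7.63 in the control, and Map3k14, which encodes the kinase NIK, was 7.93 with cocaine and 7.60 in the control. The median of the niche genes was -0.04, and 8 of the 23 held identical deposited values.

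**Figure D5:**
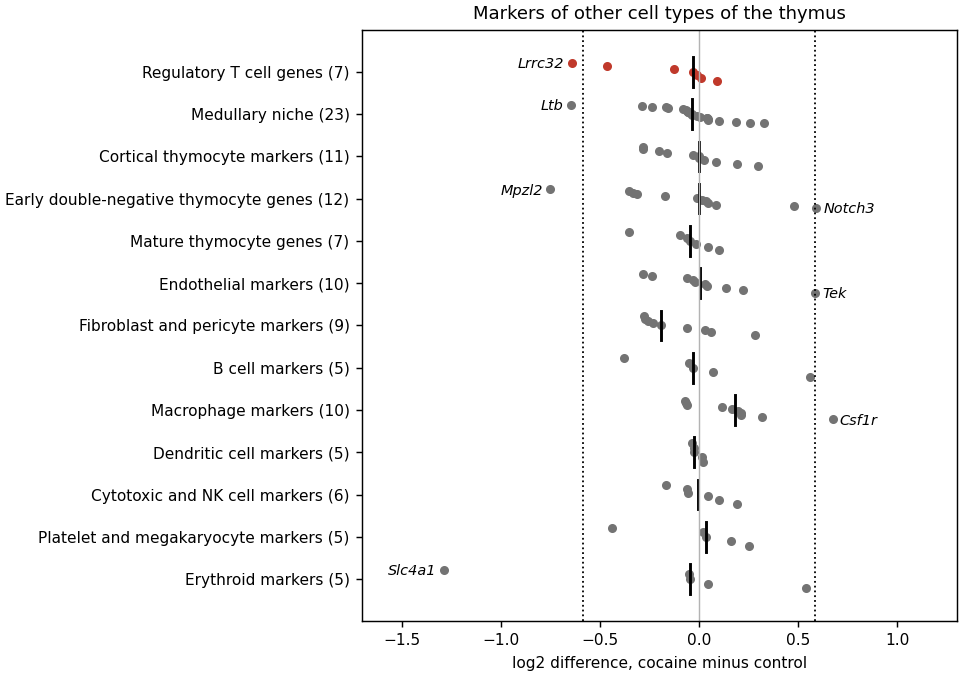
Cocaine minus control log2 difference (horizontal axis) of each measured marker (points) of 12 lists for other thymic cells and of the regulatory T cell genes, with the number measured in brackets, list medians as black bars and 1.5-fold as dotted lines. The list medians lie between -0.19 (fibroblasts and pericytes) and 0.18 (macrophages).

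Of the remaining cell types, 1 of 10 measured macrophage markers was higher by more than 1.5-fold. It was the growth factor receptor gene Csf1r, at 6.59 in the cocaine thymus and 5.91 in the control thymus. Csf1r stood below the middle of all transcript clusters, at percentile 47.8 with cocaine and 37.6 in the control. The differences of that list ran from -0.07 to 0.67, with a median of 0.18. Over all 23188 transcript clusters, 1.98% were higher and 2.29% lower by more than 1.5-fold. The erythroid list held 1 of 5 measured genes that was lower, the anion exchanger gene Slc4a1, a dim row at 4.22 with cocaine and 5.51 in the control. No measured marker of B cells (5), dendritic cells (5) or cytotoxic and NK cells (6) passed 1.5-fold. Macrophages and B cells also use CD39, and their part in the value of Entpd1 was not tested.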

How the data were processed

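Thymus RNA of 1 cocaine-treated and 1 control sample was measured on 2 Clariom S arrays, grouped by the sample titles. The authors used the Transcriptome Analysis Console (TAC) and deposited a linear intensity for each transcript cluster. For its version, background correction, normalization and build the entry is: not given in the sources used here. Of 24834 rows, 1646 control rows were left out. Of the remaining 23188, 15049 carried 1 gene symbol and 8139 carried no symbol. The intensities were quantile normalized (median 107 with cocaine and 108 in the control before it) and taken to log2, with no filter and no offset. This step changed a log2 difference by at most 0.10. Of several rows for a gene, the brightest was kept.

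With 1 array per group no test was run. Members and gene lists were chosen with earlier results of these data known, and the nasal receptor and background control rows were added for comparison after the values of the members were seen. The genes named are the members, their partners and tissue checks (other Ikaros family genes, Tgfb1, Il2rb, Il2rg, Cd28, Cd80, Cd86, Rag1, Dntt, Cd3e, Cd4 and Cd8a), genes of each list past 1.5-fold, and up to 4 others per list of the largest size whose mean reached the 25th percentile. Of 256 listed genes 220 had a row. Alternatives were the deposited values, median centring, lowess centring (span 0.3), an offset of 16, a filter at the 25th percentile, means over rows of a gene, the mean of the members and a 2-fold limit. The quantile, median and lowess steps were tested on simulated arrays with planted 2-fold differences. Those arrays held no identical rows, so the test does not cover calls near 1.5-fold or the identical values. Software was Python 3.11.15, pandas 2.3.3, numpy 2.4.6, matplotlib 3.10.9 and statsmodels 0.14.6.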

Additional observations from a re-analysis of the deposited data

How the results depend on the processing

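No paired analysis was possible because there is 1 array per group, nor could any replicate be omitted. The count of 1 member lower by more than 1.5-fold became 0 with an offset of 16 and 0 at a 2-fold limit, and it was 1 with the deposited values, median centring, lowess centring, the filter on dim rows and the mean over rows. No member was higher under any of these settings. Each of the 7 differences moved by less than 1 robust SD of rows of like brightness. The signs of Foxp3, Ctla4 and Entpd1 changed between scalings, and none of the 3 passed 1.5-fold. Of the list medians, that of the erythroid markers moved to 0.25 under the filter, which leaves out Slc4a1 and other dim rows. The other 137 values stayed near their main value by the same measure, or within 1.5 times for counts. Lrrc32, Nt5e and Foxp3 lie within the range of the background control rows, which limits what their values can show. The median of those control rows (6.77) was close to the median level of all transcript clusters (6.74), so many other rows lie there too. On the cocaine array 38 of 131 nasal receptor rows reached Lrrc32, 14 reached Nt5e and 10 reached Foxp3. On the control array these counts were 13, 6 and 10.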

Other observations

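Identical deposited values on both arrays were found in 32.2% of the 5797 dimmest rows and in 21.1% of the 5797 brightest. Of the 108 measured companion genes 30 were identical (27.8%), of the 131 nasal receptor rows 37, and of the 23 background control rows 23. Among the companion lists the share ranged from 0 of 3 other Ikaros family genes to 8 of 17 genes of TGF-β storage and activation (47.1%). The source of the identity was not tested.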
